A study of Rattus norvegicus with 19 samples.

Results

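Transcriptionally active putative enhancers (TAPEs) are stretches of open chromatin outside genes that are read into RNA on both strands. The 200 TAPEs described here are those whose RNA stood highest after neuronal depolarization with potassium chloride (KCl), relative to vehicle. They were chosen from 27538 TAPEs by their measured values. A TAPE was eligible when its mean level over the 19 libraries was at least 0.03 CPKM, where CPKM is reads per kilobase of TAPE per 1000000 reads in the library, and 3244 TAPEs passed this filter. For each eligible TAPE the log2 ratio of the KCl mean to the vehicle mean, with 0.05 CPKM added to both, was taken in each of 3 brain regions, and the average of the 3 ratios ranked the TAPEs. The KCl change of a selected TAPE is therefore a description of how it was chosen, and no test of it is given.

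The cultures were primary neurons from Sprague-Dawley rat embryos of day 18, prepared from cortex, hippocampus or striatum and kept for 11 days in vitro. Each culture received vehicle (neurobasal medium) or KCl for 1 h. Total RNA was depleted of ribosomal RNA and sequenced with strand information. The groups were cortex vehicle (n = 3), cortex KCl (n = 3), hippocampus vehicle (n = 3), hippocampus KCl (n = 3), striatum vehicle (n = 4) and striatum KCl (n = 3). The labels name no genotype, transgene or further agent. Sample labels put KCl at 25 mM, whereas the text describing the series has 10 mM, and the values do not settle which was used. The methods of the study call the libraries of a group biological replicates, without saying whether these were separate cultures or litters, and p-values measure the spread between them. Its supplementary methods list the striatum libraries with the vehicle and KCl numbers exchanged. The groups here follow the labels.

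Enhancers are DNA stretches that raise transcription of genes that may lie far away, and active ones are themselves transcribed by RNA polymerase II into short-lived enhancer RNAs from both strands. Depolarization opens voltage-gated calcium channels, and calcium-dependent kinases then activate transcription factors such as CREB and SRF that are already present in the cell. The genes they switch on first, the immediate early genes, include Fos, Fosb, Nr4a1 and other transcription factors, regulators that limit the signal, and secreted or synaptic proteins. Enhancers around such genes are known to be transcribed within the same time window as the genes.

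Library totals recovered from the deposited values ran from 46.4 to 72.5, in units of 1000000 reads. All exceed the number of reads per sample that the study states, for a reason that was not tested. A read here is the unit of the deposited values and may not be a separate sequenced fragment. Each of the 19 libraries correlated best, on average, with the other libraries of the region in its title, among them cortex vehicle replicate 3, whose tissue label names striatum. Its mean correlation over eligible TAPEs was 0.736 with cortex, 0.613 with hippocampus and 0.506 with striatum. Markers of the region were highest in the named region for 9 of 10 cortex projection genes, 6 of 9 hippocampus genes and 10 of 10 striatum genes with a value. All values rest on few reads: a selected TAPE held 39 to 1814 reads over the 19 libraries, with a median of 121.5, and 72 of the 200 held fewer than 100.

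Several selected TAPEs lie at loci for which the study designed sequences, and these identify the stretches whose values follow. Guide RNAs for activating the enhancers fell inside 5 selected TAPEs: 3 around Fos, 1 before the start of Fosb and 1 before the start of Nr4a1. They are shown 5′ to 3′ because they mark the part of each TAPE that the study targeted. Capitals mark the 12 bases at the 3′ end, next to the motif that Cas9 needs beside its target.
Fos, TAPE farther before the start: gaggagacTAACTGAGCAGC
Fos, TAPE nearer before the start: gcctgttgTCATGACTGCCG
Fos, TAPE past the end: gggtggggGCCTCTGACGGG
Fosb, guide 1: gttgtttgTCCCCGGCCAGG
Fosb, guide 2: gagggctcAAGGAGTCGCTC
Fosb, guide 3: accttcctGTCGCTAGGCAA
Nr4a1, guide 1: gtgtgtggAAACTTGTAGCG
Nr4a1, guide 2: cgggctccCTGCGGATTGCG

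For the outer 2 Fos enhancers, the study designed enhancer RNA stretches of 150 bases from conserved parts of the transcribed elements. They are designed sequences and not observed transcripts. In the first, capitals mark bases 68 to 87, counted from the 5′ end, the target of the 20-base antisense oligonucleotide that the study used against this RNA. No part of the second is in capitals. Their GC content was 52.0% and 52.7%.
Fos eRNA1: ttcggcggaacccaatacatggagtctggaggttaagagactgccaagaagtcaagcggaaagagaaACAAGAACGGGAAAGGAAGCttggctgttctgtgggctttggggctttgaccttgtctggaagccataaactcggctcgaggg
Fos eRNA3: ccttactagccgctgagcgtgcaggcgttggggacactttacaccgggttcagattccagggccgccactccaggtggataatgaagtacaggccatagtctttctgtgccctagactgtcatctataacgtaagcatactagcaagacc

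The highest average change was at a TAPE whose nearest gene is Mn1, a transcriptional co-regulator. It (Rn6 chr12:50950307-50953159, intergenic) lies 298497 bp from the Mn1 start, on the side past the end of the gene, and 261033 bp from the gene body. Its CPKM in cortex was 0.141, 0.0387 and 0.0885 in vehicle and 0.710, 0.654 and 0.753 in KCl. In hippocampus it was 0.0124, 0.0121 and 0 in vehicle against 0.123, 0.0742 and 0.0934 in KCl. In striatum it was 0.265, 0.275, 0.163 and 0.194 in vehicle against 0.847, 0.588 and 0.799 in KCl. Vehicle and KCl libraries did not overlap in any region, and the log2 change was 2.44, 1.34 and 1.53 in cortex, hippocampus and striatum, the order used for all such triplets. A second TAPE at chr12:50916240-50918960 ranked 18th, with log2 changes of 1.20, 0.55 and 0.85. Another at chr12:51200380-51202270, 48905 bp from the start, ranked 40th and its libraries were apart in striatum alone, at 0.0913 to 0.270 CPKM in vehicle and 0.304 to 0.468 in KCl.

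The Fos locus, which encodes a subunit of the AP-1 transcription factor, held 3 selected TAPEs within 54432 bp. The one past the end of the gene (chr6:109311940-109315695, 13385 bp from the start) ranked 2nd. Its CPKM was 0.0512, 0.0477 and 0.0712 in cortex vehicle and 0.338, 0.309 and 0.249 in cortex KCl. In hippocampus it was 0.0942, 0.142 and 0.0386 in vehicle and 0.284, 0.183 and 0.177 in KCl, and in striatum it was 0.0469, 0.0751, 0.119 and 0.106 in vehicle and 0.297, 0.398 and 0.378 in KCl. Every KCl library stood above every vehicle library of its region. The TAPE farther before the start (chr6:109261263-109264039, 37782 bp away) ranked 4th and was high in striatum: 0.222, 0.152, 0.168 and 0.168 in vehicle and 0.564, 0.684 and 0.635 in KCl. Cortex gave 0.0115, 0.00993 and 0.0107 in vehicle and 0.116, 0.0848 and 0.0842 in KCl, and hippocampus 0.0127, 0 and 0.00652 against 0.0882, 0.0508 and 0.0360. Here too the libraries were apart in all 3 regions, although cortex and hippocampus KCl stayed below striatum vehicle. The middle TAPE (chr6:109280836-109283088, 18471 bp before the start) ranked 70th. Its log2 change in the 3 regions was -0.12, 0.64 and 1.04, and only in striatum were its KCl values, 0.260, 0.254 and 0.323, all above vehicle, at 0.0767 to 0.146. A difference between regions in its change did not pass the interaction test described below (limma, adjusted p = 0.519).

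**Figure D1:**
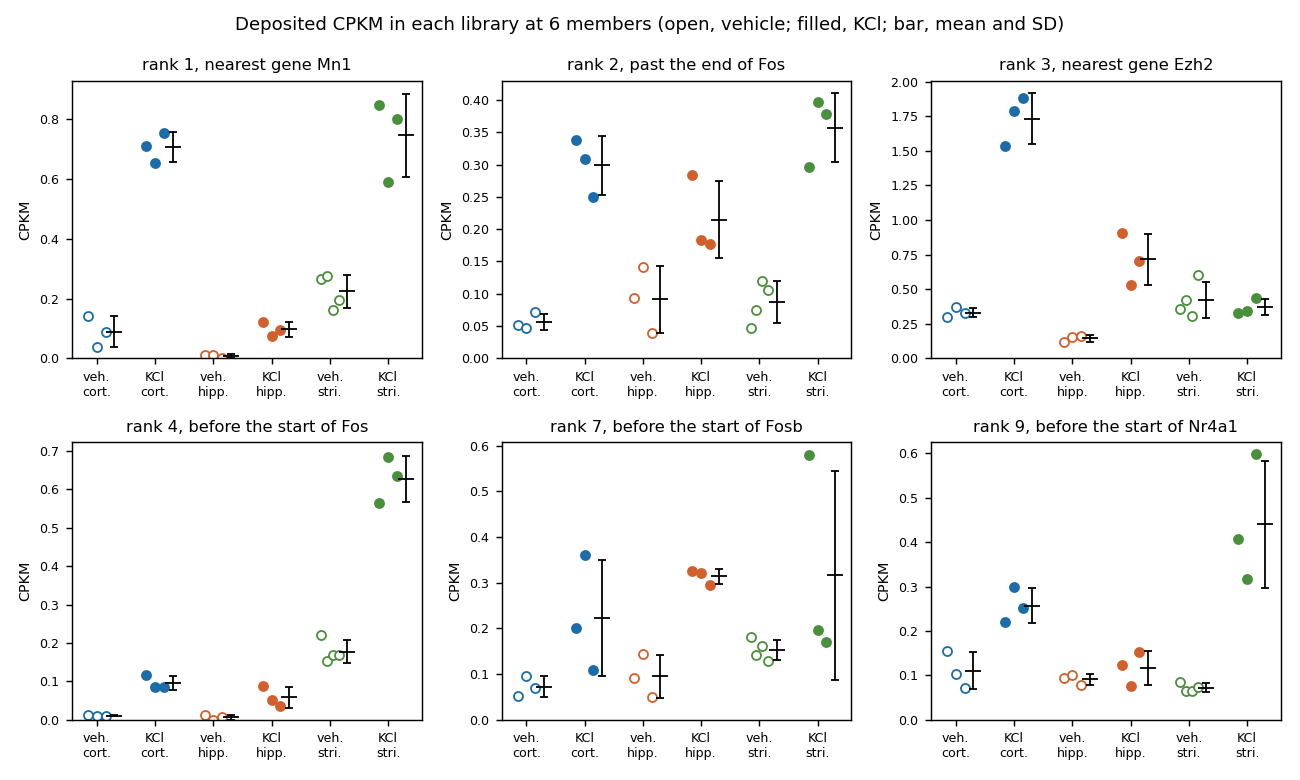
Deposited CPKM (vertical axis, from 0) in each of the 19 libraries at 6 selected TAPEs, by treatment and region (cort., cortex; hipp., hippocampus; stri., striatum). Open circles are vehicle (veh.), filled circles KCl, and black bars the mean ± SD of 3 or 4 libraries. The TAPE near Ezh2 is high in cortex and hippocampus KCl and within the vehicle range in striatum KCl.

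Fosb, which encodes another AP-1 subunit, also had 3 selected TAPEs, within 24891 bp. The nearest (chr1:80230915-80233062, 10279 bp before the start) ranked 7th. Cortex gave 0.0523, 0.0963 and 0.0692 CPKM in vehicle and 0.201, 0.360 and 0.109 in KCl, and hippocampus 0.0906, 0.144 and 0.0506 against 0.295 to 0.326. In striatum, vehicle was 0.180, 0.141, 0.161 and 0.129 and KCl 0.580, 0.197 and 0.170, so 1 KCl library was high and another lay inside the vehicle range. The TAPE at chr1:80253248-80255806 ranked 14th, with log2 changes of 1.38, 0.41 and 0.83. It is 2446 bp from the start of Ercc1, a DNA repair gene that was not called in the gene test described below, and 32817 bp from that of Fosb. The one between them (chr1:80244059-80246180), ranked 83rd, with changes of 0.43, 0.42 and 0.60.

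Nr4a1, an orphan nuclear receptor gene, had the most selected TAPEs of any locus: 4 within 12237 bp, all before its start. The TAPE 14772 bp away (chr7:142890056-142891915, rank 9) gave 0.155, 0.104 and 0.0719 CPKM in cortex vehicle and 0.220, 0.298 and 0.252 in cortex KCl. Striatum values were 0.0852, 0.0650, 0.0649 and 0.0743 in vehicle and 0.406, 0.317 and 0.598 in KCl. In hippocampus the groups overlapped, at 0.0951, 0.102 and 0.0779 in vehicle and 0.122, 0.0758 and 0.152 in KCl. The other 3 of the locus, at ranks 35, 73 and 134, likewise had their smallest change in hippocampus, at -0.28, 0.21 and -0.09, against 1.15, 0.70 and 0.52 in cortex and 1.10, 0.62 and 0.79 in striatum. For these 3 the nearest start was that of LOC103692984, at 10648 to 15287 bp, and Grasp, a scaffold protein gene, was within 15835 bp.

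Klf4 and Nr4a3, both transcription factor genes, completed the early transcription factors that were the nearest gene of a selected TAPE. The Klf4 TAPE (chr5:72406852-72409245, rank 6) is 120379 bp before the start. Cortex gave 0.0402, 0.0230 and 0.0124 CPKM in vehicle and 0.108, 0.155 and 0.256 in KCl. Hippocampus, at 0.0591, 0.0432 and 0.00757 against 0.234, 0.0589 and 0.111, and striatum, at 0.0294, 0, 0.0793 and 0.0577 against 0.158, 0.0462 and 0.0961, both overlapped. The 2 Nr4a3 TAPEs, 99013 and 101316 bp before the start, ranked 128th and 181st, with average changes of 0.41 and 0.33. Junb, a further AP-1 gene, was the second gene from the TAPE at rank 32 (chr19:26100689-26103090), at 7133 bp. Its CPKM in striatum was 0.0719 to 0.132 in vehicle and 0.299, 0.246 and 0.415 in KCl.

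None of the signalling regulators was the nearest gene of a selected TAPE. Sik1, a kinase that dampens CREB-dependent transcription, starts 57121 bp from the TAPE at rank 10 (chr20:10622072-10624253). Cortex CPKM was 0.118, 0.177 and 0.0408 in vehicle and 0.415, 0.278 and 0.208 in KCl, and hippocampus 0.113, 0.118 and 0.0166 against 0.241, 0.162 and 0.199. Striatum gave 0.323, 0.277, 0.269 and 0.317 in vehicle and 0.848, 0.608 and 0.685 in KCl. The libraries were apart in all 3 regions. Dusp1, a phosphatase of MAP kinases, lies 152940 bp from the TAPE at rank 76 (chr10:16816368-16819003), whose log2 change in the 3 regions was 0.77, 0.64 and 0.09. Dusp16, another MAP kinase phosphatase, lies 115944 bp from the TAPE at rank 71 (chr4:168632041-168634201). That TAPE gave 0.111, 0.191 and 0.151 CPKM in cortex vehicle and 0.588, 0.498 and 0.697 in cortex KCl, with a change of 0.03 in hippocampus and -0.16 in striatum. Rasd1, a Ras-related GTPase gene, lies 79786 bp from the TAPE at rank 78.

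For secreted proteins, the selected TAPE closest to an effector gene was 9778 bp before the start of Scg2 (chr9:85251631-85253927, rank 25), which encodes the granule protein secretogranin II. Cortex gave 0.0140, 0.0240 and 0 CPKM in vehicle and 0.113, 0.0732 and 0.0509 in KCl. Hippocampus values overlapped (0, 0.0150 and 0.0158 against 0.0457, 0.0768 and 0.0145), and striatum values were apart, at 0.0460, 0, 0.00751 and 0.0451 against 0.0658, 0.0482 and 0.0834. A TAPE 79886 bp from Vgf, a neuropeptide precursor gene, ranked 136th, with changes of 0.09, 0.66 and 0.46.

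The remaining TAPEs of the first 20 were at genes outside these lists. The one at rank 3 (chr4:77413446-77416130) held the most reads of all selected TAPEs, 1814, and lies 67777 bp before the start of Ezh2, a histone methyltransferase gene. Its CPKM was 0.299, 0.370 and 0.326 in cortex vehicle and 1.53, 1.79 and 1.88 in cortex KCl, and 0.119, 0.154 and 0.162 in hippocampus vehicle and 0.906, 0.532 and 0.707 in hippocampus KCl. Striatum gave 0.361, 0.420, 0.308 and 0.605 in vehicle and 0.331, 0.343 and 0.435 in KCl, so the groups overlapped there. The TAPE at rank 12 (chr4:66977035-66981159) is 23365 bp before the start of Kdm7a, a histone demethylase gene, and gave 0.0777, 0.0836 and 0.0720 CPKM in cortex vehicle and 0.303, 0.257 and 0.198 in cortex KCl. Rank 8 (chr17:88778236-88780735) is 184495 bp before Myo3a, an unconventional myosin gene, and was at 0 in all 3 hippocampus vehicle libraries and at 0.0420, 0.0846 and 0.0267 in hippocampus KCl. Striatum at the same TAPE gave 0.0563, 0.129, 0.138 and 0.0691 in vehicle and 0.461, 0.295 and 0.299 in KCl.

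Others had less annotated neighbours. Rank 5 (chr10:90188422-90190566) is 3133 bp before LOC303566 and was at 0 in all 3 cortex vehicle libraries and at 0.0804, 0.0471 and 0.136 CPKM in cortex KCl. Rank 11 (chr9:105029705-105033771) is 161356 bp from Slco6d1, with changes of 1.07, 1.27 and 0.77. Rank 13 (chr8:117179037-117181097) is 9447 bp from LOC498675, rank 15 (chr17:21105317-21107896) 108624 bp from LOC690414 and rank 16 (chrX:71741287-71743864) 61311 bp from LOC102553785, with average changes of 0.89, 0.87 and 0.87. Ranks 17 and 19 (chr1:52823514-52827922 and chr1:52816502-52818456) neighbour each other, 69114 and 77353 bp from Tbxt. Rank 17 was apart in all 3 regions, and rank 19 was highest in hippocampus KCl, at 0.188, 0.126 and 0.136 against 0.0362, 0 and 0.0185 in vehicle. Rank 20 (chrX:14842610-14844386), 47108 bp from B630019K06Rik, rested on 64 reads and on hippocampus, where its change was 1.74.

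Across all 200, the average change ran from 1.77 to 0.31, with a median of 0.45, against a median of -0.11 over the 3244 eligible TAPEs. The threshold fell in a dense part of this range. The last 3 TAPEs inside it, nearest to Igf2bp3, Ywhah and Brca2, had average changes of 0.3184, 0.3175 and 0.3145, and the first 3 outside it, nearest to Brca2, Fosb and LOC300308, had 0.3141, 0.3140 and 0.3138. The one of these near Fosb (chr1:80237657-80239994) held 400 reads, so the Fosb locus had a further TAPE just outside.

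The selection rewarded a high average, and a positive change in every region was not required. The change was positive in all 3 regions for 140 of the 200 (70.0%), in 2 regions for 57 and in 1 region for 3. Over eligible TAPEs, 268 of 3244 (8.26%) were positive in all 3. The share was 88.0% among ranks 1 to 50 and 64.0% among ranks 51 to 200. By level, 30 of 43 selected TAPEs with a mean of at least 0.1 CPKM and 62 of 85 with a mean under 0.05 were positive in all 3. The negative values fell in striatum for 26 TAPEs, in hippocampus for 20 and in cortex for 13. When each library was centred on its own median over eligible TAPEs, which moved the median average change of those TAPEs from -0.11 to 0.00, 197 of the 200 were chosen again and 173 of the new 200 were positive in all 3 regions.

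All KCl libraries stood above all vehicle libraries for 76 selected TAPEs by the cortex values, 59 by hippocampus and 52 by striatum, where the eligible TAPEs gave 5.3%, 3.79% and 3.02%. These are the values that chose the TAPEs. Libraries were apart in all 3 regions for 7 TAPEs, in 2 regions for 34, in 1 region for 98 and in none for 61. Over the 3244 eligible TAPEs the counts for 2 regions, 1 region and none were 40, 292 and 2905. The 7 were ranks 1, 2, 4, 8, 10, 17 and 24, and no other eligible TAPE was apart in all 3. Rank 24 (chr3:83168776-83171008) is 32499 bp before the start of the microRNA gene Mir129-2. The largest of the 3 changes was the cortical one for 75 TAPEs, the striatal one for 72 and the hippocampal one for 53.

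**Figure D2:**
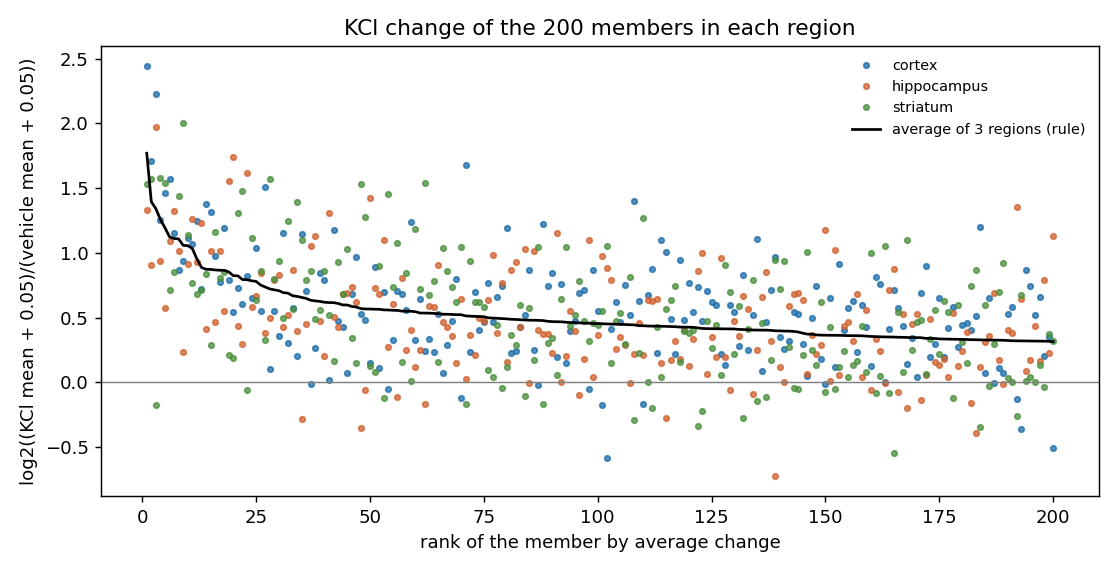
The log2 KCl change (vertical axis; 0.05 CPKM added to both means) of the 200 selected TAPEs in each region, against their rank by the average of the 3 regions (black line, the quantity used for selection). Single regions scatter widely about the average, and 60 TAPEs have at least 1 region at or below 0.

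To read agreement between regions on changes that had not ranked the TAPEs, 200 were also chosen on the average of 2 regions and read in the one left out. The libraries of that region still entered the filter on the mean level over all 19. Chosen on hippocampus and striatum, 124 of 200 (62.0%) had a positive change in cortex, where 41.3% of eligible TAPEs did, and the median change was 0.18 against -0.08. Chosen on cortex and striatum, 118 (59.0%) were positive in hippocampus, against 36.1%, with a median of 0.13 against -0.13. Chosen on cortex and hippocampus, 119 (59.5%) were positive in striatum, against 34.7%, with a median of 0.09 against -0.14. In the region left out, KCl libraries were all above vehicle for 42, 27 and 26 of the 200, or 21%, 13.5% and 13%. The agreement was concentrated at the top of each list: of the first 20, 18, 17 and 17 were positive in the region left out, with medians of 0.90, 0.74 and 0.74. These 3 lists shared 131, 136 and 142 TAPEs with the 200 described here. With the filter also limited to the libraries of the 2 choosing regions, 120, 113 and 109 of 200 were positive in cortex, hippocampus and striatum (60%, 56.5% and 54.5%), against 41.4%, 35.4% and 34.1% of the TAPEs that passed, with medians of 0.15, 0.08 and 0.05. Both ways of reading were added after the values had been seen.

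**Figure D3:**
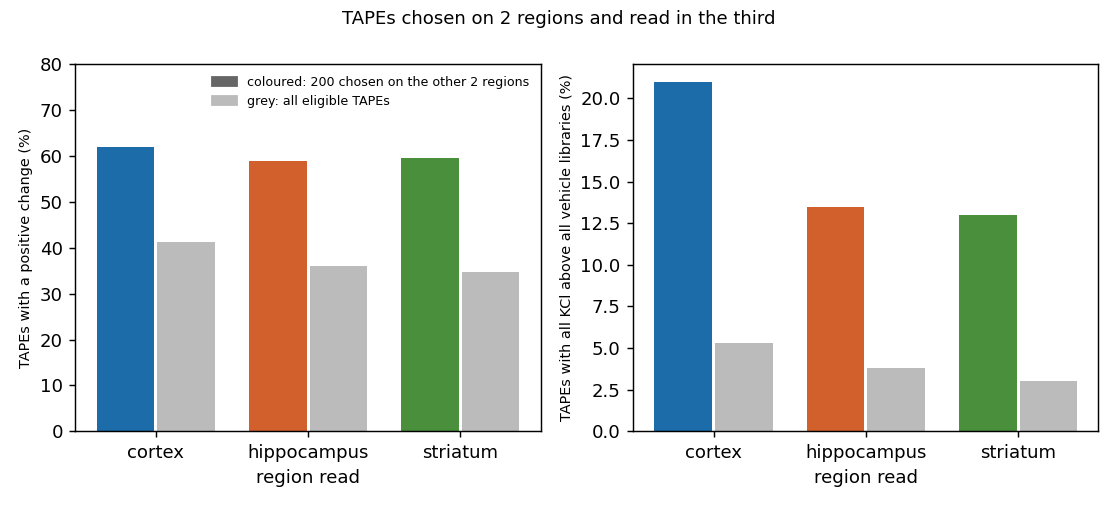
Share (%) of 200 TAPEs chosen on 2 regions that had a positive change (left) or all KCl above all vehicle libraries (right) in the region left out, coloured by the region read. Grey bars are all 3244 eligible TAPEs, and in each panel and region the coloured bar is the higher one.

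Whether the KCl change itself differed between regions was tested with limma, by an F-test of the region by KCl interaction over all eligible TAPEs. It called 1 eligible TAPE in all (0.0308%), and this was the selected TAPE near Ezh2 (adjusted p = 1.82e-05), with log2 changes of 2.23 in cortex, 1.97 in hippocampus and -0.17 in striatum. At a pseudocount of 0.2 it called 8 eligible TAPEs, 7 of them selected, and with voom on the recovered reads 4, of which 3 were selected. Because the rule used the same changes, the share of selected TAPEs among these calls is read as a description. The TAPEs at ranks 71 (nearest to Gpr19) and 9 (Nr4a1), with adjusted p of 0.157 and 0.275, were among the next 4 and did not pass. The Ezh2 TAPE kept its call in the 6 limma fits on all libraries with another pseudocount, filter, scaling or voom (adjusted p of 6.69e-05 or below). It also kept it in the 19 limma fits without 1 library (adjusted p of 0.000272 or below). It lost the call in the fit with the replicate number as a block. There its striatal change rests on vehicle replicate 2 and KCl replicate 1, the only striatum libraries whose number recurs in another library.

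Differences in level between the 3 regions did not rank the TAPEs and were tested over all eligible TAPEs, with treatment as a covariate. They did bear on the filter, which a TAPE could pass through 1 region alone: the mean was at least 0.03 CPKM in all 3 regions for 90 of the 200, in 2 for 63 and in 1 for 47. limma called a dependence on region at 107 of the 200 (53.5%), against 45.8% of eligible TAPEs, and at 38 of the 90 (42.2%), against 37.2% of the 1791 eligible TAPEs that reached 0.03 CPKM in all 3. In vehicle libraries alone the shares were 26.5% and 29.1%. The rule favours low vehicle values, and in every vehicle library the median of the selected TAPEs was below that of eligible TAPEs. It was 0.0298 against 0.0626 CPKM in cortex vehicle replicate 1, and 0.0573 against 0.0633 in striatum vehicle replicate 6. The shares in vehicle libraries therefore cannot show whether selected TAPEs depend on region more or less than eligible ones. In bulk cultures, fewer cells of a type and less RNA per cell cannot be told apart. The lowest adjusted p, 9.99e-12, was at the TAPE farther before the Fos start, with means of 0.0529 CPKM in cortex, 0.0324 in hippocampus and 0.370 in striatum. Next was a TAPE 5217 bp before the start of Prox1 (chr13:108376448-108377915, rank 158), a gene known for its expression in dentate granule neurons of the hippocampus, with means of 0.0365, 0.327 and 0.0144 (adjusted p = 2.23e-10). The leading Mn1 TAPE followed, at 0.398, 0.0525 and 0.447 (adjusted p = 3.65e-10). A TAPE 46623 bp before the start of Plch1, a phospholipase C gene, was lowest in striatum, at 0.435, 0.529 and 0.149 (chr2:154463983-154467103, adjusted p = 3.38e-09). One next to the Myo3a TAPE of rank 8 (chr17:88774131-88776236, rank 34) was highest in striatum, at 0.0147, 0.0179 and 0.219 (adjusted p = 2.25e-08). Its mean reached 0.03 CPKM in striatum alone. Of the 107 called, 71 (66.4%) were highest in striatum, 23 in hippocampus and 13 in cortex, and of the 1486 eligible TAPEs called, 47.3% were highest in striatum. These counts include TAPEs that passed the filter only through the region where they were high. Of the 47 that reached 0.03 CPKM in 1 region, 35 were called, and 33 were highest in striatum. Among TAPEs that reached it in all 3, called or not, 48 of 90 selected and 817 of 1791 eligible ones were highest in striatum. Striatum has more libraries than the other regions in the mean used by the filter, and the part of this in the striatal share was not tested.

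The selected TAPEs lay about as far from genes as other eligible TAPEs. The median distance to the nearest gene start was 41464 bp, against 45500 bp for eligible TAPEs and 90343 bp for all 27538. Within 50 kb of a start lay 113 of the 200 (56.5%) and 52.5% of eligible TAPEs, and within 10 kb 34 (17%) and 16.1%. Distances over 200 kb were found for 18 (9.0%) and 17.1%. A selected TAPE had a median of 15.5 genes within 1 Mb, against 13, and a median length of 1987 bp, against 1937 bp. Its median level over the 19 libraries, 0.0574 CPKM, was close to that of eligible TAPEs, 0.0570.

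On the strand of the nearest gene, 130 selected TAPEs (65.0%) lay before its start and 70 (35.0%) past its end, against 59.4% and 40.6% of eligible TAPEs. None lay inside the span, as the definition of a TAPE requires. The median average change was alike on both sides, 0.45 before and 0.46 past. Distances to gene ends were also taken: 33 of the 200 (16.5%) lay within 10 kb past the end of some gene, against 20.4% of eligible TAPEs. RNA polymerase can run past a gene's end, and whether RNA of this kind enters the values of these TAPEs was not tested.

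**Figure D4:**
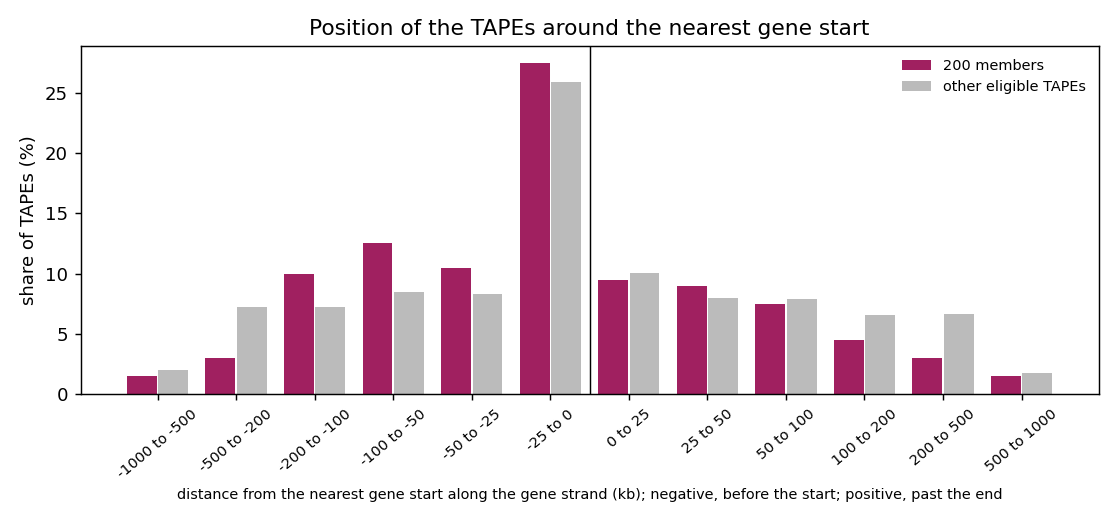
Share (%) of the 200 selected TAPEs and of the 3044 other eligible TAPEs by distance from the nearest gene start along the strand of that gene (horizontal axis, kb, in bins of unequal width; negative before the start, positive past the end). The fullest bin of both sets is the 25 kb before the start, with 27.5% and 25.9%.

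Selected TAPEs came in 176 loci when those less than 100 kb apart were joined. Of these, 160 held 1 TAPE and 16 held 2 to 4, together 40 TAPEs. Besides Nr4a1, Fos and Fosb, loci of 3 lay at Dhx40 and Ypel2, at Myo3a, at Zc3h12c and at Sept1, Zfp771 and Znf48. TAPEs of 1 locus share a neighbourhood and are not independent of each other.

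The table gives no expression values for genes, but it gives the correlation of each gene with every TAPE within 1 Mb, and from these the profile of a gene over the 19 libraries could be solved, in units of that gene's own SD over the libraries. This was possible for 16733 of 17715 gene symbols (94.5%). A difference of 1 unit is 1 SD, and levels or differences cannot be compared between genes as amounts of RNA. KCl was compared with vehicle within regions by an exact permutation test, two-sided, in which the 14000 arrangements allow a smallest p of 7.14e-05. Genes were not used in the selection. Of all genes with a profile, 1044 were higher (6.24%) and 2510 lower (15%) with KCl at an adjusted p under 0.05.

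The 200 selected TAPEs had 182 distinct nearest genes, of which 180 had a profile. Of these, 39 (21.7%) were higher and 14 (7.78%) lower with KCl. The nearest genes of the other eligible TAPEs gave 201 of 1887 (10.7%) higher and 293 (15.5%) lower. Counted by TAPE, with shared genes counted more than once, 48 of the 200 had a nearest gene that was higher. Among the first 20, 9 did and none had a lower one. These 20 had 17 distinct nearest genes, 7 of them higher. No count by TAPE is given for the other eligible TAPEs. Before the start, 26 of 115 genes (22.6%) were higher and 6 (5.22%) lower, against 11.0% and 15% for the other eligible TAPEs. Past the end, 14 of 66 (21.2%) were higher and 8 (12.1%) lower, against 10.9% and 16.3%.

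Fos was higher with KCl by 1.87 SD (cortex), 1.31 SD (hippocampus) and 2.29 SD (striatum), and every KCl library was above every vehicle library of its region. Fosb differed by 1.74, 1.10 and 2.42 SD and Nr4a1 by 1.78, 0.92 and 2.35, both apart in all 3 regions. Mn1 differed by 0.90, 0.07 and 1.30 SD, and its hippocampus libraries, though apart, were all low, at -1.20 to -1.18 in vehicle and -1.17 to -1.10 in KCl. Klf4 differed by 2.37 and 1.80 SD in cortex and hippocampus and by 0.22 in striatum, where the libraries were still apart, at -0.72 in all 4 vehicle libraries and -0.52 to -0.49 in KCl. All 5 had an adjusted p of 0.00187 in the exact permutation test, the value that genes at the smallest p received. Kdm7a differed by 1.43 SD on average over regions (adjusted p = 0.00275, exact permutation test). Ezh2, at -0.19 SD (adjusted p = 0.539), Myo3a, at 0.30 (0.065), and Ercc1, at 0.35 (0.483), did not pass the exact permutation test.

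Genes that were higher with KCl thinned out with distance. Within 10 kb of a selected TAPE, 7 of 36 genes (19.4%) were higher and none was lower, against 10.2% and 15.1% for the other eligible TAPEs. From 10 to 25 kb, 15 of 69 (21.7%) were higher and 4 (5.80%) lower, and from 25 to 50 kb, 21 of 108 (19.4%) and 12 (11.1%). From 50 to 100 kb the share higher was 12.8% against 6.75%, and from 100 to 200 kb 7.59% against 6.48%. Beyond 200 kb, up to 1 Mb, 158 of 2642 (5.98%) were higher, against 6.08%. Some genes are counted near TAPEs of both sets. Within 200 kb, 82 of the 200 TAPEs (41.0%) had at least 1 gene that was higher, against 23.5% of the other eligible TAPEs, and 82 (41.0%) had at least 1 that was lower, against 39.1%. Of the 851 distinct genes in this window, with or without a profile, 94 were higher and 120 lower. Over all genes with a profile the shares were 6.24% and 15%. For 39 of the 82 TAPEs with a higher gene it was not the nearest one. Examples are Sik1 at 57121 bp and 1.68 SD on average, Junb at 7133 bp and 1.84, Rasd1 at 79786 bp and 0.88, Dusp1 at 152940 bp and 1.596, and Vgf at 79886 bp and 1.53, each with an adjusted p of 0.00187 in the exact permutation test.

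**Figure D5:**
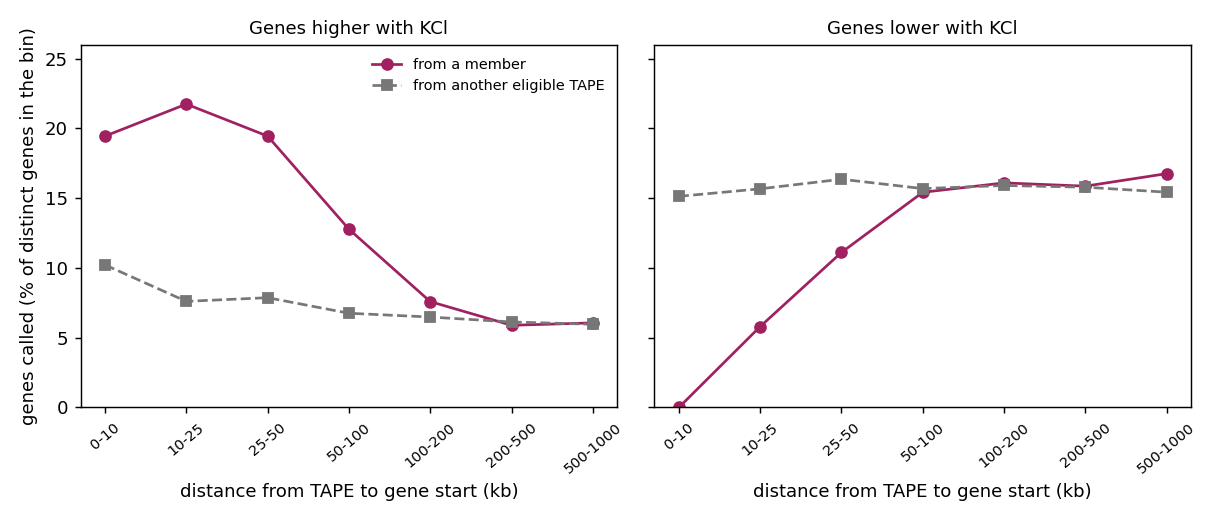
Share (%) of distinct genes higher (left) or lower (right) with KCl by distance from a TAPE to the gene start (horizontal axis, kb, in bins of unequal width), for the 200 selected TAPEs and for the 3044 other eligible TAPEs. The share of higher genes near selected TAPEs runs from 19.4% within 10 kb to 5.89% at 200 to 500 kb, where the other TAPEs give 6.13%.

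The gene with the highest deposited correlation within 1 Mb was also looked up. These correlations are over the same 19 libraries in 6 groups, the same KCl difference enters both sides, and they are given as a description. It was the nearest gene for 48 of the 200 (24.0%), against 19.0% of eligible TAPEs, and the gene was higher with KCl for 80 TAPEs (40%) and lower for 5 (2.5%), against 6.08% and 23.5% of the other eligible TAPEs. The choice of TAPEs and of the gene both favour a shared KCl difference, so these shares support nothing. At Mn1, Klf4, Fosb, Nr4a1, Kdm7a and Myo3a, and at the Fos TAPE past the end, the nearest gene was the one with the highest correlation, with r of 0.860, 0.711, 0.650, 0.882, 0.549, 0.853 and 0.948 in that order (n = 19). The TAPE near Ercc1 correlated most with Fosb (0.809), that at rank 32 with Junb (0.663), that at rank 71 with Dusp16 (0.803) and that at rank 76 with Dusp1 (0.757). For the others of the first 20 it was Repin1 for rank 3 (0.427), Dlst for rank 4 (0.790), Arl4d for rank 5 (0.860), Rrp1 for rank 10 (0.898), Slco6b1 for rank 11 (0.126), Impdh2 for rank 13 (0.684) and Jarid2 for rank 15 (0.369). It was Il2rg for rank 16 (0.520), Fgfr1op for rank 17 (0.414), Tfip11 for rank 18 (0.680), Prr18 for rank 19 (0.507) and Hypm for rank 20 (0.799). Of these 12 genes, Arl4d, Rrp1, Impdh2, Jarid2, Fgfr1op and Tfip11 were higher with KCl.

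The rank 71 TAPE and Dusp16 were both high in cortex KCl alone. Dusp16 differed by 2.91 SD in cortex but by 0.08 and -0.45 elsewhere, with cortex libraries apart, and over the 3 regions it did not pass (adjusted p = 0.197, exact permutation test). Gpr19, whose start is nearest at 23552 bp, differed by 1.77 SD on average (adjusted p = 0.00187, exact permutation test). Grasp, beside the Nr4a1 TAPEs, differed by 1.25 SD in cortex, 0.08 in hippocampus and 2.596 in striatum.

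The 3 lists of activity genes were chosen with earlier results of these data known, so their counts are a description. Of 36 early transcription factors, 34 were higher with KCl and none lower, of 28 signalling regulators with a profile 24 and none, and of 24 synaptic and secreted effectors 18 and 1. Over all genes with a profile, 6.24% were higher and 15% lower. The median difference was 1.63, 1.23 and 0.81 SD, against -0.14 over all genes. Within 200 kb of a selected TAPE lay 7 of the 36 early transcription factors, 4 of 30 signalling regulators and 2 of 26 effectors, and 851 of all 17715 genes (4.80%). Counted to 1 Mb these were 10, 9 and 3. Farther than 200 kb but within 1 Mb, and higher with KCl, were Ier2 at 326230 bp, Plk2 at 395111, Sgk1 at 554275, Fosl2 at 576032, Gadd45g at 598419, Gadd45b at 759143 and Cebpb at 950153, while Lingo3, at 670172 bp, was lower. Most early genes thus had no selected TAPE nearby: 29 of the 36 early transcription factors were not within 200 kb of one.

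Few markers of other cell types were called. With KCl, 1 of 9 astrocyte markers with a profile was higher (Sox9), and none of 10 oligodendrocyte lineage, 7 microglia and 9 endothelial and mural markers was called, although single values reached 1.04 SD (Ptprc) and -0.73 SD (Cldn5). Of 10 neuron markers 2 were higher, Snap25 and Nefl. Among region markers, 1 of 10 cortex projection genes, 2 of 9 hippocampus genes and 5 of 10 striatum genes were higher, and 1 cortex and 1 striatum gene lower. Gad2, a GABA-synthesis gene called higher at 0.07 SD, is the second gene from the 3 TAPEs of the Myo3a locus, at 339303 to 396067 bp. Because profiles carry no level, the summed level of a list cannot be given, and the part of cell composition in the results was not tested.

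Promoters of 3 genes near selected TAPEs are shown for the letters TGACG, the core of the CREB site, on either strand (TGACG or CGTCA, in capitals). The sequences are from RefSeq for the build GRCr8, whose coordinates do not compare with those of the TAPEs, and run from 250 bases before to 50 after the start. They are at chr1:88089135-88089434 on the minus strand for Fosb, at chr7:134259888-134260187 on the plus strand for Nr4a1, and at chr20:9958597-9958896 on the minus strand for Sik1, and the table has no entry for Fos.
Fosb: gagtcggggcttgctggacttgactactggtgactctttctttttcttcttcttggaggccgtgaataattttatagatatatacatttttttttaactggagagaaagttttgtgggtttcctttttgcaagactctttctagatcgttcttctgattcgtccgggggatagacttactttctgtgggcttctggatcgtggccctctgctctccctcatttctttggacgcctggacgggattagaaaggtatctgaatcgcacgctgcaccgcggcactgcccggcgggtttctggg
Nr4a1: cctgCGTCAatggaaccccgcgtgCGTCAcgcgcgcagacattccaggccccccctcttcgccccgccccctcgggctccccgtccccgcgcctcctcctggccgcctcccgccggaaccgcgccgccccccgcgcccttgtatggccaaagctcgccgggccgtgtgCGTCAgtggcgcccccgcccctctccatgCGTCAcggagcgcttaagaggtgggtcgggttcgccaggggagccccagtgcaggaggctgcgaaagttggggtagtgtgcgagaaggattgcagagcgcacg
Sik1: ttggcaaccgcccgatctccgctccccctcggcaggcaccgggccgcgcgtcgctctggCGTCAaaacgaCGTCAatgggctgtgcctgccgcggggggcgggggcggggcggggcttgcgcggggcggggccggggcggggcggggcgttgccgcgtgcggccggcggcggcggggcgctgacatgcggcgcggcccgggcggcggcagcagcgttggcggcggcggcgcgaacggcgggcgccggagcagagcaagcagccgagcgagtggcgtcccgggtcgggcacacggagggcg

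The Fosb window held no such match, the Nr4a1 window 4 and the Sik1 window 2. Of the 39 nearest genes that were higher with KCl, 28 had a promoter in the table and 12 of these (42.9%) held the letters, against 37 of 131 (28.2%) for all nearest genes matched and 22.0% of all 27457 promoters of the same length. The full palindrome TGACGTCA, which contains TGACG, was in 4 of the 28 (14.3%), 8 of the 131 (6.11%) and 1.91% of all. The AP-1 letters TGANTCA were in none of the 28, 4 of the 131 (3.05%) and 7.33% of all. A match is a description of these letters in this window.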

How the data were processed

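Strand-specific total RNA-seq of the 19 libraries was processed by the authors: reads were trimmed (Trim Galore 0.4.5), aligned with STAR to Rn6, handled with SAMtools 1.9 and quantified at TAPEs in SeqMonk, where duplicate reads and reads of either strand were included. The deposited CPKM values are in the RPKM unit, reads per kilobase and per 1000000 reads of the library. The deposited correlations of TAPEs with genes within 1 Mb are a score from -1 to 1. Whole reads were recovered from CPKM and TAPE length, with 100.0% of values within 0.01 of a whole number, which gave library totals.

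The 200 TAPEs and the gene lists were chosen with earlier results of these data known. Region and interaction tests used limma 3.58.1 (R 4.3.3; lmFit, eBayes with trend, F-tests) on log2(CPKM + 0.05) over 3244 TAPEs. A fold on this scale understates changes of low TAPEs. Gene profiles were solved by least squares from the correlations (914 genes had too few TAPEs, 68 had several positions) and tested by exact permutation within region, with differences divided by the residual SD. All p-values were adjusted by the Benjamini-Hochberg method over every TAPE or gene tested. Scripts were tested on simulated data. TAPEs named are the first 20, those whose nearest gene is in an activity list, those with the lowest p in the limma tests, those at the threshold and the fullest locus. Genes named are their nearest and highest correlated genes, and list genes within 1 Mb. Other TAPEs or genes named were chosen after their values were seen.

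Groups follow the sample titles, also for cortex vehicle replicate 3, whose tissue label names striatum. Alternatives were other pseudocounts and filters, centred libraries, group medians, voom on recovered reads, a replicate block, an unscaled statistic and leaving out each library. Replicate numbers are shared between treatments in cortex and hippocampus only. No genome of the build was used, so TAPE sequences are not shown.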

Additional observations from a re-analysis of the deposited data

Results flagged for a closer look

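The KCl change of the TAPE near Ezh2 (chr4:77413446-77416130) differed between regions by the interaction test of limma (adjusted p = 1.82e-05), with log2 changes of 2.23 in cortex, 1.97 in hippocampus and -0.17 in striatum. In the fit with the replicate number as a block it did not pass, but there its striatal change rests on vehicle replicate 2 and KCl replicate 1 alone.

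Among the first 20 TAPEs, 4 had a striatum vehicle library far from the other 3, by Dixon's ratio of the gap to the whole range. At the TAPE near LOC303566, replicate 6 was at 0 CPKM and the others at 0.0322 to 0.0376 (ratio 0.857). At the TAPE near Kdm7a, replicate 4 was at 0.147 and the others at 0.0669 to 0.0725 (ratio 0.930). At the TAPE near LOC102553785, replicate 6 was at 0 and the others at 0.0134 to 0.0156 (ratio 0.857). At the TAPE near B630019K06Rik, replicate 2 was at 0.0495 and the others at 0 (ratio 1.00). Chance gives such a ratio in about 1 of 20 groups of normally distributed values, and 20 were looked at. The values here are few reads with zeros among them, so that rate need not apply.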

How the results depend on the processing

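Of the 200 TAPEs, 115 remained with a filter of at least 0.05 CPKM, 102 with no filter and 131 when chosen on hippocampus and striatum alone (added after seeing the data), while 144 to 197 remained under the other pseudocounts, centring and group medians, and 166 to 181 without 1 library (173 without cortex vehicle replicate 3). In all 25 settings 54 remained, 17 of them among the first 20. Nearest genes higher with KCl numbered 28 to 41 without 1 library, and 70 when the highest correlated gene replaced the nearest. Lower genes numbered 9 (without hippocampus KCl replicate 3) to 19 (without hippocampus vehicle replicate 3), and 5 with the highest correlated gene. TAPEs positive in all 3 regions numbered 110 to 173.

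The interaction test called 3 of the 200 TAPEs with voom on recovered reads, 7 with a pseudocount of 0.2, 0 with the replicate block, and 1 or 2 without 1 library (2 without hippocampus vehicle replicate 1). Region dependence was called at 68 of the 115 that passed the filter of 0.05 (59.1%, against 51.7% of all TAPEs in that fit), at 70 with the replicate block (35.0% against 27.7%), at 53 in vehicle libraries only (26.5% against 29.1%), and at 83 to 112 otherwise. Apart from fewer TAPEs or libraries tested, the cause was not tested. Deviations of same-numbered vehicle and KCl libraries within cortex and hippocampus had correlations of -0.0311 to 0.0070. With few reads per TAPE, such values cannot show whether the replicate numbers mark pairs. In the block fit, striatum vehicle replicate 2 and KCl replicate 1 are the only striatum libraries whose number recurs in another library. Each other striatum library is absorbed by its own number. Striatal comparisons then rest on vehicle replicate 2 and KCl replicate 1 alone, so this fit cannot show whether the Ezh2 call holds. The gene test was not run with paired libraries. In vehicle libraries only, region dependence was called at a smaller share of the 200 than of eligible TAPEs, unlike with all libraries. The rule favours low vehicle values, which bears on this comparison. The average change of each of the first 20 TAPEs stayed positive in every setting where it passed the filter. Counts of positions and of nearest genes were not set against those of the other eligible TAPEs under other settings. Whether those comparisons keep their direction was therefore not tested. Depth limits single values: 72 of the 200 TAPEs held fewer than 100 reads in all.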
